A study of Mus musculus with 6 samples.

Results

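WNT signalling was examined through 46 genes, the WNT ligands, their receptors, the R-spondin receptors and ligands, the secreted inhibitors, and β-catenin with its degradation complex, out of 27179 genes counted in mouse pancreas and pancreatic tumours. A gene was included if its symbol named a WNT ligand, a Frizzled receptor, a member of the DKK or SFRP families, an R-spondin or its LGR receptor, or was Lrp5, Lrp6, Axin1, Axin2, Rnf43, Znrf3, Notum, Wif1, Ctnnb1 or Apc, and if it was listed in either of the authors' tables of tumour against normal pancreas. Of these genes 43 were in the H7 table and 46 in the UNKC table. A further 9 genes of the same families (Wnt1, Wnt3, Wnt3a, Wnt8a, Wnt8b, Wnt9b, Rspo2, Rspo4 and Dkk4) were in neither table and had at most 6 reads in any library, so they were not followed. By role there were 13 ligands, 12 receptors, 7 genes of the R-spondin axis, 10 secreted inhibitors and 4 genes of β-catenin and its degradation complex.

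Total RNA was sequenced from 3 groups with n = 2 libraries each. Normal tissue was whole pancreas of C57BL/6 mice. H7 tumours grew from PANC02-H7 cells and UNKC tumours from UN-KC-6141 cells, both mouse pancreatic carcinoma lines, placed surgically in the pancreas of C57BL/6 mice and removed on day 20. No mice received a treatment, and each tumour group represents 1 cell line with whatever host cells the dissected tumour held. The labels do not state the animals' age or sex, nor that the libraries of a group came from separate mice, so every p-value measures only the spread between these libraries, which may be technical.

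As background, WNT proteins are lipid-modified signals that bind a Frizzled receptor together with the co-receptor LRP5 or LRP6. In the canonical branch this stops the complex of APC, AXIN and kinases from marking β-catenin for destruction, and β-catenin then acts with TCF/LEF factors on target genes, among them the pathway's own brakes Axin2, Notum, Rnf43 and Znrf3. RNF43 and ZNRF3 remove Frizzled from the cell surface, and R-spondins bound to LGR4, LGR5 or LGR6 take those brakes away. Other ligands, WNT5A being the best known, signal largely without β-catenin. In the pancreas the pathway takes part in organ growth and in the biology of ductal carcinoma.

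Between 33332516 and 40507546 reads were counted in genes in the tumour libraries and 12077320 and 8204225 in normal pancreas. Ribosomal RNA and Lars2, whose locus also collects ribosomal reads, took 92.0% and 85.2% of the normal reads against 20.1% to 27.8% in the tumours. The WNT genes drew 1125 and 1101 reads in normal pancreas and from 73237 to 112590 per tumour library, and both mates of a read pair were counted. In normal pancreas 9 of the 46 genes had no read and 14 had 1 to 6 reads over both libraries, so folds against normal tissue are imprecise for these genes. The tissue labels were checked on marker genes: 8 acinar markers summed to 9927 and 10318 CPM (reads scaled to the library size after TMM factors) in normal pancreas and to 3.56 to 34.1 CPM in the tumours. Skeletal muscle markers summed to 697 CPM in H7 replicate 2 and 2510 CPM in UNKC replicate 2, against 1.25 to 11.1 CPM in the other 4 libraries. In whole tissue, fewer cells of a type and less RNA per cell cannot be told apart.

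The tumours of the 2 lines differed in the levels of 25 WNT genes. H7 tumours had more RNA of the ligands Wnt10a, Wnt10b and Wnt9a, of 5 Frizzled receptors and Lrp6, and of the secreted inhibitor Notum. UNKC tumours had more of the ligands Wnt5a, Wnt4 and Wnt2, of the R-spondin receptors Lgr5 and Lgr6, of 5 secreted inhibitors, of the receptors Lrp5 and Fzd3, of the Frizzled-removing ligase Rnf43, of Axin2 and of β-catenin (Ctnnb1). Of 45 tested genes 10 were higher and 15 lower in H7 than in UNKC tumours at an adjusted p under 0.05 (edgeR quasi-likelihood test over 16306 genes, Benjamini-Hochberg adjustment), or 22.2% and 33.3%, where 7.06% and 11.1% of all tested genes were called. The median log2 difference of the 45 genes was -0.74 against -0.02 for all genes. In each of the 25 called genes the 2 H7 libraries lay outside the range of the 2 UNKC libraries, as they did in 35 of the 45 tested genes. The share over all tested genes was not computed. Sets of 2 libraries often separate without a difference, so these counts add nothing to the calls. Wnt16 was too low to be tested, with 0 and 1 reads in normal pancreas, 5 and 3 reads in H7 tumours, and 4 and 18 reads in UNKC tumours.

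These counts depended on having 2 libraries per tumour. Without H7 replicate 1 the comparison called 2 genes higher and 2 lower, without H7 replicate 2 it called 4 and 10, without UNKC replicate 1 it called 5 and 7, and without UNKC replicate 2 it called 6 and 10. Wnt5a, Lgr6, Lrp6 and Notum stayed past the threshold in all of these and under each other scaling, filter and test in the closing section, apart from the removal of both tumour libraries numbered 2 at once. No call between the tumours changed sign in any of them. With total counts as the only scaling, Fzd1, Fzd2, Fzd3, Fzd7, Lrp5, Dkk3 and Ctnnb1 missed the threshold (adjusted p from 0.070 to 0.19). Without H7 replicate 2 the lost calls were Wnt2, Wnt9a, Wnt10a, Fzd1, Fzd2, Fzd3, Fzd6, Fzd7, Lrp5, Rnf43 and Ctnnb1. Without UNKC replicate 1 they were Wnt2, Wnt9a, Wnt10b, Fzd1, Fzd2, Fzd3, Fzd7, Lrp5, Rnf43, Dkk3, Sfrp1, Sfrp2 and Ctnnb1, and without UNKC replicate 2 they were Wnt10b, Fzd1, Fzd2, Fzd3, Fzd7, Lrp5, Rnf43, Dkk3, Sfrp1 and Sfrp2. Wnt9a, Dkk3 and Sfrp2 were also lost without either normal library, which enter the shared estimate of spread.

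Against normal pancreas, 15 WNT genes were higher and 10 lower in H7 tumours, or 33.3% and 22.2% of 45, where 29.6% and 21.9% of all tested genes were called. In UNKC tumours 16 were higher and 7 lower, or 35.6% and 15.6%, where 29.1% and 19.3% of all tested genes were called. These shares are near those of all genes. Median log2 differences were 0.73 for the WNT genes and 0.34 for all genes in H7 tumours, and 1.49 and 0.42 in UNKC tumours. With total counts, which include the ribosomal reads, as the only scaling the split was 29 higher and 1 lower in H7 tumours. In UNKC tumours it was 37 and 1, and the median of all genes moved to 3.61 in H7 and 3.77 in UNKC tumours. Without UNKC replicate 1, 4 genes were lower in UNKC tumours. Leaving out 1 library in turn ended at least once the calls of Wnt2b, Wnt4, Wnt9a, Wnt10b, Fzd4, Znrf3, Dkk3 and Sfrp1 in H7 tumours and those of Wnt2b, Wnt5a, Fzd3, Fzd6, Rnf43, Rspo1, Znrf3 and Dkk1 in UNKC tumours.

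**Figure D1:**
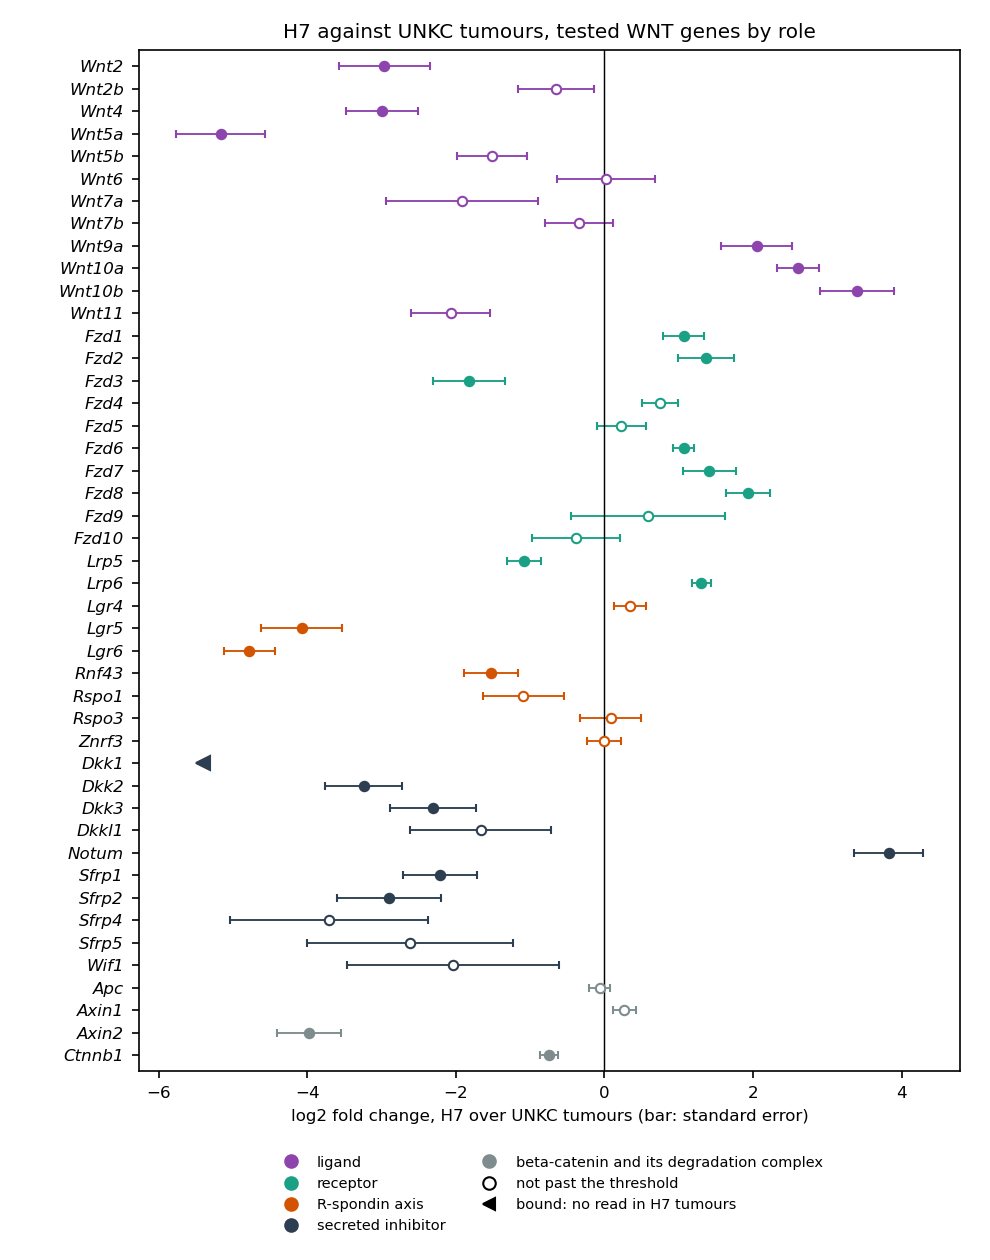
Log2 difference of H7 against UNKC tumours for the 45 tested WNT genes, coloured by role, with standard errors of the edgeR fit, n = 2 libraries per group; filled points passed the test and open points did not. Dkk1 has no read in H7 and is drawn as a triangle at its bound, at least 42.4-fold lower. Filled points right of 0, led by Notum at 3.83, were higher in H7, and filled points left of 0, led among fitted values by Wnt5a at -5.17, were lower in H7.

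The sequence before the transcription start was read for 28 of the genes, in 33 windows of 250 bases from RefSeq on GRCm38.p6, the same assembly as the mm10 build named by the submitters. The 4 genes below differed between the tumours, 2 of them Frizzled receptors higher in H7, 1 ligand higher in H7 and 1 R-spondin receptor higher in UNKC tumours, and serve as examples. The stretch printed of each ends before every start that RefSeq and GENCODE annotate for the gene, and the windows of other genes are not printed. They are Fzd1 on the minus strand at chr5:4758217-4758466, Fzd7 on the plus strand at chr1:59481897-59482146, Lgr6 on the minus strand at chr1:135105375-135105526 and Wnt10b on the minus strand at chr15:98778207-98778400. Each is written 5′ to 3′ on the gene's strand. Capitals mark the motif CTTTGA or its reverse complement TCAAAG, a form of the core of the sequence that TCF/LEF factors bind.
Fzd1: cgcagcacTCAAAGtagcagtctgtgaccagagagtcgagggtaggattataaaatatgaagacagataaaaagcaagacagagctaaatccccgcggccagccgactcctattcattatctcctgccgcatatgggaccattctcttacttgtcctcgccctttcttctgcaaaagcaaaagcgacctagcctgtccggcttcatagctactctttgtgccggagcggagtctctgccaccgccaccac
Fzd7: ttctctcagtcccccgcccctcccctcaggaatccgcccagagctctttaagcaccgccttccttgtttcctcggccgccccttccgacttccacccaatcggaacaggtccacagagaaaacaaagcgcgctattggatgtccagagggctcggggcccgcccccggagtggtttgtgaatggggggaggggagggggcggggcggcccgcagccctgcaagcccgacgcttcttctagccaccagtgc
Lgr6: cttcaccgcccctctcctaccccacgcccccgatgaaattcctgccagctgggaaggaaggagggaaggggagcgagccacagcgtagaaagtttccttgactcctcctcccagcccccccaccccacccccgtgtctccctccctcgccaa
Wnt10b: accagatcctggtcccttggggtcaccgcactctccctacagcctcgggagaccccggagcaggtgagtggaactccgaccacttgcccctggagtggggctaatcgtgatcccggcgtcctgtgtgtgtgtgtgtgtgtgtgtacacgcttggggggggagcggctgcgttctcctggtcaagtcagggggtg
The motif, searched on both strands, was found 242 bases before the start of Fzd1 and in none of the other 3 sequences. It was in 4 of the 33 windows (Fzd1, Wnt5b, Wnt11 and Dkk1), or 12.1%, with 2 matches in Dkk1 at 174 and 117 bases before its start, and in 13.8% of all 32851 windows of the table. Other forms of the core were not searched for or marked. A match is a run of letters and not a measured binding site.

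**Figure D2:**
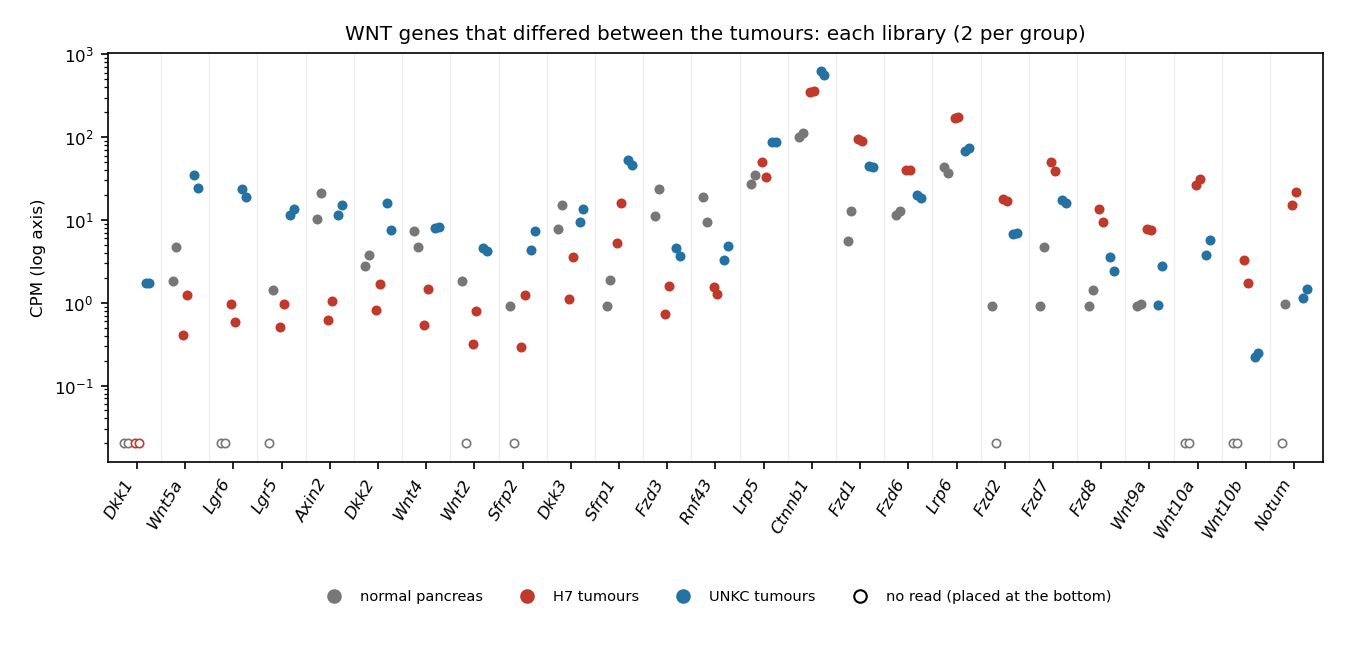
CPM on a log axis in each of the 6 libraries for the 25 WNT genes that passed the test between the tumours, ordered by their difference between the tumours, with libraries without a read as open circles at the bottom. The Lgr6 points show no read in normal pancreas, 0.590 and 0.956 CPM in H7 and 18.7 and 23.7 CPM in UNKC tumours.

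Among the ligands, 3 were higher and 3 lower in H7 than in UNKC tumours, and 6 of the 12 tested were not called. The shares over all tested genes were 7.06% higher and 11.1% lower. Wnt10a (gene ID 22409, chromosome 1, 74792019 to 74804176, GRCm38), which encodes a ligand of the canonical branch, had 26.7 and 31.1 CPM in H7 tumours, 3.74 and 5.74 CPM in UNKC tumours and no read in either normal library. All 4 tumour libraries were above the normal ones, and both H7 libraries were above both UNKC libraries. The difference between the tumours was 2.61 ± 0.28 on the log2 scale (SE, adjusted p = 0.0052, edgeR quasi-likelihood test, which gives all adjusted p-values below unless another source is named). Against a floor of 3 read pairs over the normal group, Wnt10a was at least 20.5-fold higher in H7 and at least 3.36-fold higher in UNKC tumours. Its neighbour on the chromosome, Wnt6, had at most 22 reads in any library.

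Wnt10b, a close relative of Wnt10a, had 3.24 and 1.75 CPM in H7 tumours, 0.221 and 0.246 CPM in UNKC tumours and no read in normal pancreas. The H7 libraries were higher (log2 difference 3.40 ± 0.49, adjusted p = 0.012), and they were at least 1.77-fold above the normal floor. Wnt9a had 7.73 and 7.65 CPM in H7, 0.93 and 2.79 CPM in UNKC and 0.925 and 0.954 CPM in normal tissue. It was higher in H7 than in UNKC tumours (2.05 ± 0.48, adjusted p = 0.031) and higher than in normal pancreas (3.03 ± 0.83, adjusted p = 0.021), where it had 4 reads (95% counting interval of the log2 ratio 1.17 to 6.08). UNKC libraries overlapped the normal ones for this gene.

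Wnt5a (gene ID 22418, chromosome 14, 28504543 to 28527448), which encodes a ligand that signals largely without β-catenin, had 35.2 and 24.1 CPM in UNKC tumours against 0.405 and 1.23 CPM in H7 tumours and 1.85 and 4.77 CPM in normal pancreas. Both UNKC libraries stood above all others, and both H7 libraries stood below the normal ones. The log2 difference of H7 from UNKC tumours was -5.17 ± 0.60 (adjusted p = 0.0040), and that of UNKC tumours from normal pancreas was 3.17 ± 0.68 (adjusted p = 0.010).

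Wnt4, a ligand needed for kidney and female reproductive tract development, had 7.95 and 8.16 CPM in UNKC, 0.536 and 1.48 CPM in H7 and 7.40 and 4.77 CPM in normal tissue. It was lower in H7 tumours than in UNKC tumours (-2.99 ± 0.49, adjusted p = 0.011) and than in normal pancreas (-2.59 ± 0.60, adjusted p = 0.013). Wnt2 had 4.56 and 4.21 CPM in UNKC and 0.319 and 0.796 CPM in H7 tumours, with 4 and 0 reads in the normal libraries, and was lower in H7 than in UNKC (-2.96 ± 0.61, adjusted p = 0.020). The H7 libraries of Wnt2 overlapped the normal libraries.

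Wnt7b, a canonical ligand of epithelia, was not called between the tumours. It had 29.2 and 18.1 CPM in H7 tumours, 31.1 and 28.7 CPM in UNKC tumours and 0 and 2.38 CPM in normal pancreas, and the libraries of the 2 tumours overlapped. It was higher than in normal pancreas in both H7 (4.33 ± 0.76, adjusted p = 0.0040, counting interval 2.50 to 6.33) and UNKC tumours (4.67 ± 0.75, adjusted p = 0.0031, counting interval 2.86 to 6.69), where the normal libraries together had 5 reads. Wnt2b had 3.24 and 10.5 CPM in normal pancreas, 1.03 and 0.770 CPM in H7 and 1.04 and 1.78 CPM in UNKC tumours, and was lower in both tumours (H7 -2.93, adjusted p = 0.011; UNKC -2.28, adjusted p = 0.025). The remaining tested ligands, Wnt5b, Wnt6, Wnt7a and Wnt11, stayed at or under 3.51 CPM in every library and passed no test.

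Compared per kilobase of gene length, so that genes can be set beside each other, Wnt10a was the leading ligand in H7 tumours at 14.7 ± 1.60 CPM per kb (mean ± SD, n = 2), followed by Wnt7b at 5.36 ± 1.78 and Wnt9a at 2.32 ± 0.02. In UNKC tumours Wnt5a (6.78 ± 1.80) and Wnt7b (6.78 ± 0.39) stood level, followed by Wnt10a (2.42 ± 0.72), Wnt4 (2.11 ± 0.04) and Wnt2 (2.07 ± 0.12), and these last 3 did not differ beyond their spread. The 13 ligands together summed to 25.3 and 25.0 CPM per kb in H7 and 24.3 and 22.2 in UNKC tumours, against 4.87 and 6.39 in normal pancreas.

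**Figure D3:**
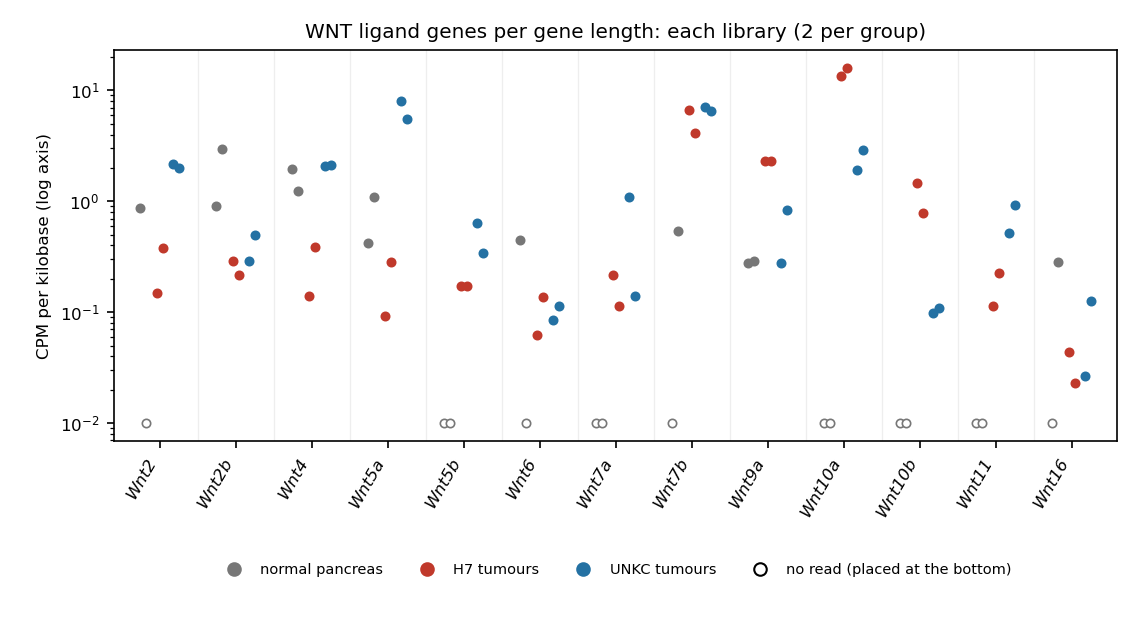
CPM per kilobase of gene length, on a log axis, for the 13 WNT ligands in each of the 6 libraries, with libraries without a read as open circles at the bottom. Wnt10a stands highest in both H7 libraries, with a mean of 14.7, and Wnt5a and Wnt7b share the top in UNKC tumours, each with a mean of 6.78.

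Receptors were the role in which most H7 calls fell: 6 of 12 were higher and 2 lower in H7 than in UNKC tumours. Of all tested genes 7.06% were higher and 11.1% lower. Of the 6, 5 were Frizzled genes, which encode the seven-pass receptors that WNT proteins bind. Fzd1 had 93.9 and 89.5 CPM in H7, 44.3 and 43.2 CPM in UNKC and 5.55 and 12.9 CPM in normal pancreas, so the 3 groups did not overlap. It was higher in H7 than in UNKC tumours by 1.07 ± 0.28 (log2, adjusted p = 0.049). Fzd7 had 50.3 and 38.9 CPM in H7, 17.6 and 15.9 CPM in UNKC and 0.925 and 4.77 CPM in normal tissue, a difference between the tumours of 1.41 ± 0.36 (adjusted p = 0.044). The same order of groups without overlap held for Fzd2, Fzd6 and Fzd8. Fzd2 differed between the tumours by 1.37 (adjusted p = 0.043), Fzd6 by 1.07 (adjusted p = 0.0053) and Fzd8 by 1.93 (adjusted p = 0.0080). Fzd6 had 40.3 and 40.0 CPM in H7 and 19.9 and 18.4 CPM in UNKC tumours.

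Lrp6 (gene ID 16974, chromosome 6, 134446476 to 134566913) and Lrp5, which encode the paired co-receptors of the canonical branch, went opposite ways. Lrp6 had 173 and 177 CPM in H7, 68.5 and 73.0 CPM in UNKC and 44.0 and 37.2 CPM in normal pancreas, and was higher in H7 than in UNKC tumours (1.31 ± 0.13, adjusted p = 0.0025). Lrp5 had 50.0 and 32.7 CPM in H7, 88.5 and 86.5 CPM in UNKC and 26.8 and 35.3 CPM in normal pancreas, and was lower in H7 than in UNKC tumours (-1.08 ± 0.24, adjusted p = 0.028). Neither co-receptor overlapped between the tumours. For Lrp5, the H7 and normal libraries overlapped.

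Fzd3, a receptor known for axon guidance and planar polarity, had 0.724 and 1.59 CPM in H7, 4.60 and 3.63 CPM in UNKC and 11.1 and 23.8 CPM in normal tissue. It was lower in H7 than in UNKC tumours (-1.82 ± 0.48, adjusted p = 0.050, just under the threshold). Fzd4, an endothelial receptor for Norrin as well as WNT, was not called between the tumours, with 9.89 and 8.03 CPM in H7, 4.32 and 6.36 CPM in UNKC and 19.9 and 19.1 CPM in normal pancreas. Fzd5 had 30.9 and 25.9 CPM in H7 and 23.5 and 25.0 CPM in UNKC tumours and was not called between them. Fzd9 and Fzd10 stayed at or under 0.695 CPM in every library.

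Against normal pancreas, 7 of the 12 tested receptors were higher in H7 tumours and 7 in UNKC tumours, where 29.6% and 29.1% of all tested genes were called higher. Of these, Fzd1, Fzd2, Fzd5, Fzd6, Fzd7 and Lrp6 were called in both. Genes on the opposite strand share 17.8% of the exon bases of Fzd5. The rises of these 6 in H7 tumours ran from 1.72 for Fzd6 to 5.21 for Fzd2 on the log2 scale, and in UNKC tumours from 0.65 for Fzd6 to 3.85 for Fzd2. Fzd2 had 2 reads in normal pancreas, which gives counting intervals of 2.74 to 10.52 and 1.37 to 9.16. Fzd3 and Fzd4 were lower than in normal pancreas in both tumours, Fzd3 at -3.91 (H7) and -2.08 (UNKC) and Fzd4 at -1.12 (H7) and -1.87 (UNKC). With scaling to total counts alone Fzd4 turned to 2.17 in H7 and 1.50 in UNKC tumours, and Fzd3 turned to 1.21 in UNKC tumours. In H7 tumours the fall of Fzd3 kept its sign with that scaling but missed the threshold.

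In the R-spondin axis no gene was higher and 3 of 7 were lower in H7 than in UNKC tumours. The shares over all tested genes were 7.06% higher and 11.1% lower. Lgr5 and Lgr6 encode R-spondin receptors, and Lgr5 also marks stem cells of several epithelia. Lgr6 (gene ID 329252, chromosome 1, 134983300 to 135105374) had 23.7 and 18.7 CPM in UNKC, 0.956 and 0.590 CPM in H7 and no read in normal pancreas. The UNKC libraries stood apart from the other 4, with a log2 difference of H7 from UNKC tumours of -4.78 ± 0.35 (adjusted p = 0.0021) and a level at least 15.1-fold above the normal floor. Lgr5 (gene ID 14160, chromosome 10, 115450314 to 115587780) had 11.4 and 13.7 CPM in UNKC, 0.507 and 0.975 CPM in H7 and 0 and 1.43 CPM in normal pancreas, and H7 tumours overlapped normal tissue. It was lower in H7 than in UNKC tumours (-4.07 ± 0.55, adjusted p = 0.0040) and higher in UNKC tumours than in normal pancreas (4.15 ± 0.87, adjusted p = 0.0072, 3 normal reads, counting interval 1.88 to 6.78). Lgr4, the other receptor of the family, had 11.9 to 18.5 CPM over the 6 libraries and passed no test.

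Rnf43, which encodes one of the ligases that remove Frizzled, had 19.0 and 9.54 CPM in normal pancreas, 3.32 and 4.82 CPM in UNKC and 1.55 and 1.28 CPM in H7 tumours. The groups did not overlap, and Rnf43 was lower in H7 than in UNKC tumours (-1.52 ± 0.37, adjusted p = 0.038), and lower than in normal pancreas in H7 (-3.33, adjusted p = 0.0013) and UNKC tumours (-1.81, adjusted p = 0.012). Znrf3, the partner ligase, had 11.0 and 8.05 CPM in H7, 9.07 and 10.1 CPM in UNKC and 3.70 and 4.77 CPM in normal tissue, so it was above normal in both tumours (1.17 in H7, adjusted p = 0.020, and 1.2 in UNKC, adjusted p = 0.021) and overlapped between them. Of the ligands of these receptors, Rspo1 had 6.48 and 3.34 CPM in normal pancreas and 0.116 to 0.443 CPM in the tumours, and was lower in H7 (-4.59, adjusted p = 0.0025) and UNKC tumours (-3.50, adjusted p = 0.0057). Both falls kept their sign with total counts as the only scaling but missed the threshold. Rspo3 had 0.925 to 2.09 CPM over the 6 libraries and was not called.

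Of all tested genes, 7.06% were higher and 11.1% lower in H7 than in UNKC tumours. Among the secreted inhibitors, 1 of 10 was higher and 5 were lower. Notum (gene ID 77583, chromosome 11, 120653788 to 120661193), an enzyme that removes the lipid from WNT proteins, was the exception. It had 15.0 and 22.0 CPM in H7, 1.15 and 1.45 CPM in UNKC and 0 and 0.954 CPM in normal pancreas. Both H7 libraries stood above the other 4, with a log2 difference from UNKC tumours of 3.83 ± 0.46 (adjusted p = 0.0022) and from normal pancreas of 5.29 ± 0.80 (adjusted p = 0.0014, 2 normal reads, counting interval 2.83 to 10.62). Of its exon bases, 38.1% are shared with genes on the opposite strand (Myadml2os and Notumos), and the strand of the libraries is not given in the sources used here, so reads of the 2 strands cannot be told apart.

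Sfrp1, which encodes a secreted decoy that binds WNT proteins, had 52.8 and 46.6 CPM in UNKC, 5.31 and 16.1 CPM in H7 and 0.925 and 1.91 CPM in normal pancreas. The 3 groups did not overlap, and Sfrp1 was lower in H7 than in UNKC tumours (-2.21 ± 0.50, adjusted p = 0.029). Sfrp2 had 4.31 and 7.38 CPM in UNKC, 0.290 and 1.26 CPM in H7 and 0.925 and 0 CPM in normal tissue, and was also lower in H7 than in UNKC tumours (-2.90 ± 0.70, adjusted p = 0.028). Opposite-strand exons share 16.1% of its bases.

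The Dickkopf genes encode proteins of which DKK1 and DKK2 bind LRP5 and LRP6, while the function of DKK3 in WNT signalling is less settled. Dkk1 had 156 and 148 reads, or 1.73 and 1.73 CPM, in UNKC tumours and none in the other 4 libraries, which made it at least 42.4-fold lower in H7 than in UNKC tumours against the floor of 3 read pairs (adjusted p = 0.0066). Dkk2 had 16.0 and 7.52 CPM in UNKC, 0.811 and 1.67 CPM in H7 and 2.78 and 3.82 CPM in normal pancreas, and was lower in H7 than in UNKC tumours (-3.24 ± 0.51, adjusted p = 0.010). Dkk3 had 9.55 and 13.4 CPM in UNKC, 1.10 and 3.53 CPM in H7 and 7.87 and 15.3 CPM in normal tissue, where UNKC overlapped normal pancreas, and was lower in H7 tumours than in UNKC tumours (-2.31 ± 0.58, adjusted p = 0.043) and than in normal pancreas (-2.31 ± 0.65, adjusted p = 0.027). Dkkl1, a testis-associated relative, had 7.40 and 1.91 CPM in normal pancreas and at most 0.117 CPM in the tumours, and was lower in both (adjusted p = 0.00092 in H7 and 0.0015 in UNKC tumours). The H7 tumours had 4 reads of it (counting interval of the log2 ratio to normal pancreas -10.66 to -5.20).

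Sfrp4, Sfrp5 and Wif1, 3 further secreted inhibitors, passed no test. Sfrp4 had 1.34 and 10.4 CPM in UNKC tumours, and Wif1 had 0.0886 and 1.33 CPM, so the second library was the higher one in both. In H7 tumours replicate 2 exceeded replicate 1 by more than 2-fold in 12 of the 43 tested WNT genes with a read in replicate 1 and the reverse held in 1 (Fzd9), where 5.74% and 4.75% of all such tested genes did so. In UNKC tumours the counts were 5 and 2 of 45, where the shares over all tested genes were 5.94% and 2.98%. The 12 genes in H7 tumours include 8 of those called lower than in UNKC tumours (Wnt2, Wnt4, Wnt5a, Fzd3, Dkk2, Dkk3, Sfrp1 and Sfrp2), with gaps from 2.06-fold for Dkk2 to 4.34-fold for Sfrp2.

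Markers of other cell types differed between the same libraries. The 8 fibroblast markers summed to 753 and 1642 CPM in H7, 2479 and 4124 CPM in UNKC and 349 and 523 CPM in normal tissue, with none at 0 in any library. Of these markers 2 (Dcn and Pdgfra) were higher and 1 (Pdpn) lower in H7 than in UNKC tumours, and 5 were not called. The 8 ductal and epithelial markers summed to 422 and 401 CPM in H7 and 1116 and 930 CPM in UNKC tumours, none was at 0, and 3 of 8 (Krt19, Krt18 and Cdh1) were lower in H7. The 6 mesothelial markers summed to 45.9 and 57.1 CPM in H7 and 81.1 and 96.8 CPM in UNKC tumours, 5 of 6 were lower in H7, and Lrrn4 was at 0 in H7 replicate 2. Msln, which was not called, alone made 45.4 and 56.0 CPM of the H7 sums and 74.9 and 87.5 CPM of the UNKC sums. Macrophage markers had the higher sums in H7, at 905 and 737 CPM against 426 and 420 CPM in UNKC tumours, and of 8 markers 2 were higher (Csf1r and C1qa) and 1 lower (Cd163) in H7. The 8 pericyte and smooth muscle markers summed to 389 and 376 CPM in H7 and 102 and 350 CPM in UNKC tumours, with 2 higher (Pdgfrb and Acta2) and 3 lower (Cspg4, Myh11 and Tagln). Of the other lists, 2 of 8 endothelial markers (Cdh5 and Cldn5), 1 of 8 T cell markers (Cd8a) and 1 of 7 adipocyte markers (Fabp4) were lower in H7, 1 of 7 tested nerve markers (S100b) and 4 of 8 acinar markers (Cpa1, Pnlip, Amy2b and Rbpjl) were higher, and none of 8 islet markers or 9 skeletal muscle markers was called. Sums of these lists in H7 and UNKC tumours were 54.5 to 76.8 and 95.7 to 146 CPM for endothelial, 10.8 to 15.1 and 29.8 to 31.0 CPM for T cell, 6.98 to 7.48 and 8.99 to 16.6 CPM for adipocyte, 27.0 to 31.5 and 21.7 to 27.6 CPM for nerve and 10.8 to 64.0 and 14.2 to 44.7 CPM for islet markers. Among adipocyte markers Adipoq, Lep and Retn were at 0 in both H7 libraries. Over all tested genes 7.06% were higher and 11.1% lower in H7 than in UNKC tumours. The part of these cell types, and of the muscle reads in the second tumour libraries, in the levels of the WNT genes was not tested.

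**Figure D4:**
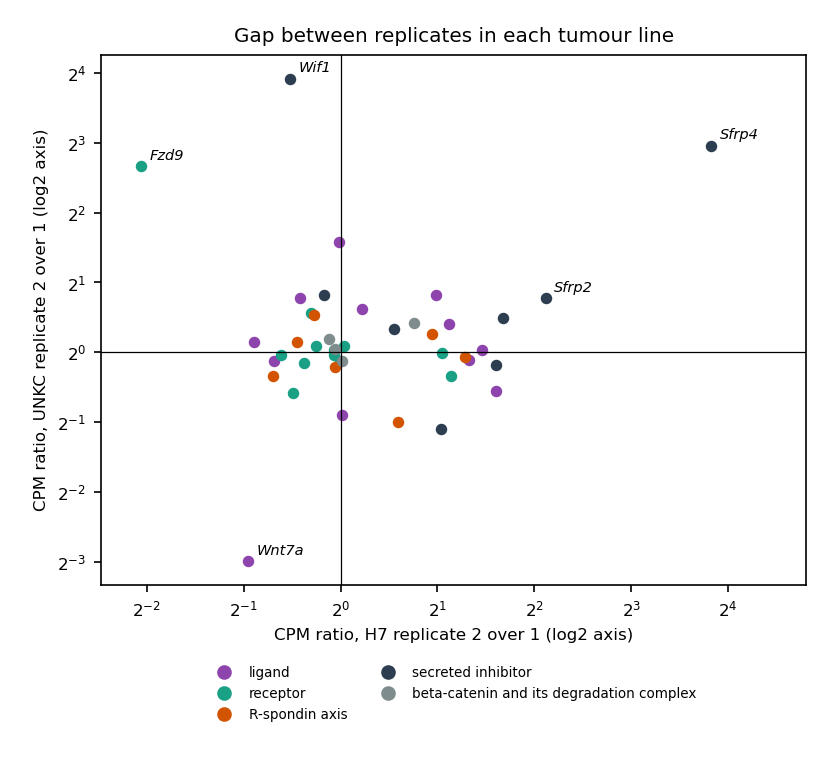
Ratio of replicate 2 to replicate 1 in CPM in H7 tumours (horizontal) against the same ratio in UNKC tumours (vertical), both on log2 axes, for the 43 tested WNT genes with a read in H7 replicate 1, coloured by role. In H7 tumours 12 genes lie right of a 2-fold ratio, and Sfrp4 is high in both second libraries.

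Within β-catenin and its degradation complex, 2 of 4 genes were lower and none higher in H7 than in UNKC tumours. Among all tested genes 11.1% were lower and 7.06% higher. Ctnnb1 (gene ID 12387, chromosome 9, 120933400 to 120960507), which encodes β-catenin, had the highest level per kilobase of the WNT genes in every group (98.3 CPM per kb in H7 and 165 in UNKC tumours). It had 354 and 358 CPM in H7, 623 and 569 CPM in UNKC and 102 and 111 CPM in normal pancreas. The groups did not overlap, and Ctnnb1 was lower in H7 than in UNKC tumours by a log2 difference of -0.74 ± 0.13 (adjusted p = 0.013), while it was higher than in normal pancreas in H7 (1.74 ± 0.13, adjusted p = 0.00026) and UNKC tumours (2.49 ± 0.13, adjusted p = 0.00015). Antisense or overlapping genes share 15.1% of its exon bases.

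Axin2 (gene ID 12006, chromosome 11, 108917828 to 108950783), a scaffold of the degradation complex and a standard readout of canonical signalling, had 0.623 and 1.05 CPM in H7, 11.3 and 15.2 CPM in UNKC and 10.2 and 20.99 CPM in normal pancreas. The H7 libraries stood below all others, while UNKC and normal libraries overlapped. Axin2 was lower in H7 tumours than in UNKC tumours (-3.98 ± 0.43, adjusted p = 0.0032) and than in normal pancreas (-4.21 ± 0.46, adjusted p = 0.00085). With total counts as the only scaling, its fall below normal pancreas kept its sign but missed the threshold. Axin1, its constitutive relative, had 23.8 to 30.5 CPM over the 6 libraries and passed no test.

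Apc, the scaffold and tumour suppressor, had 156 and 135 CPM in normal pancreas, 68.2 and 62.6 CPM in H7 and 63.8 and 73.0 CPM in UNKC tumours. It was lower than in normal pancreas in both tumours (-1.15 in H7, adjusted p = 0.0013, and -1.09 in UNKC, adjusted p = 0.0017), and the tumours overlapped. With the trend on gene length removed, the H7 difference was -0.14 (adjusted p = 0.56), and with total counts alone both turned positive (2.14 and 2.28).

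**Figure D5:**
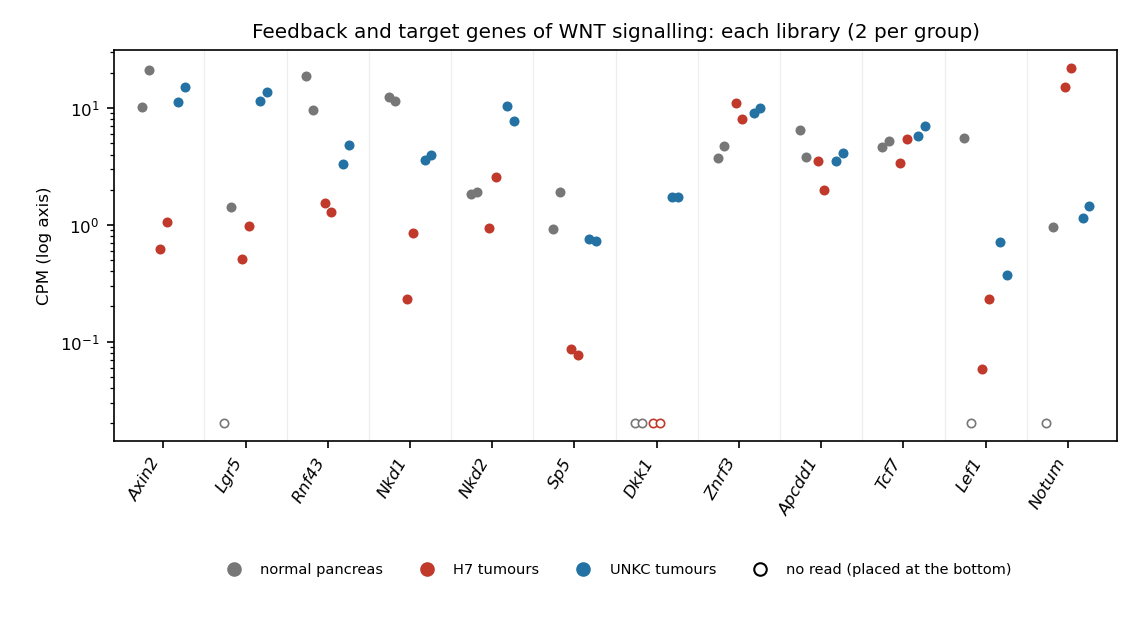
CPM on a log axis in each of the 6 libraries for chosen feedback and target genes of the pathway, with libraries without a read as open circles at the bottom. Some were chosen after their values were seen. Other genes of the target list, among them Bmp4 and Ephb3, both higher in H7 than in UNKC tumours, are not drawn. Axin2 lies at 0.623 and 1.05 CPM in H7 against 11.3 and 15.2 CPM in UNKC tumours, and Notum lies the other way, at 15.0 and 22.0 CPM in H7 against 1.15 and 1.45 CPM in UNKC tumours.

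Axin2 and Notum, both feedback genes, differed in opposite directions between the tumours. Of 28 tested target genes of the pathway on a list of 31, 2 were higher and 7 lower in H7 than in UNKC tumours. Of all tested genes 7.06% were higher, near the share of the list, and 11.1% lower. The median log2 difference of the list was -0.84 against -0.02 for all genes. Feedback genes and TCF/LEF factors on the list were looked at after their values were seen. Nkd1, an antagonist of Dishevelled, had 0.232 and 0.847 CPM in H7 and 3.57 and 3.93 CPM in UNKC tumours (-2.78, adjusted p = 0.020). Nkd2 (-2.36, adjusted p = 0.023) and the transcription factor Sp5 (-3.14, adjusted p = 0.0073) were also lower in H7, while Lef1, Tcf7 and Apcdd1 were not called. Bmp4, a growth factor that WNT signalling can induce, went the other way, with 192 and 171 CPM in H7 and 5.57 and 6.32 CPM in UNKC tumours (4.93, adjusted p = 0.00022), as did Ephb3 (1.37, adjusted p = 0.0082). Twist1, a mesenchymal transcription factor, had 0.0869 and 0.359 CPM in H7 and 11.7 and 12.7 CPM in UNKC tumours (-5.73, adjusted p = 0.0016), and Id2 was lower as well (-2.55, adjusted p = 0.0044).

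The 4 other lists covered the remaining pathway genes. Of 8 tested genes of WNT secretion and processing none was higher and 2 were lower in H7 than in UNKC tumours, Gpc6, a glypican (-3.61, adjusted p = 0.0057), and Trabd2b. Wls, the carrier that takes WNT proteins to the cell surface, was not called between the tumours and was higher than in normal pancreas in both (2.77 in H7 and 2.56 in UNKC). Of 11 tested co-receptors and modulators none was higher and 5 were lower, namely Kremen1, Frzb, Reck, Adgra2 (-2.31, adjusted p = 0.0074) and Ror1, a receptor of WNT5A, at 0.203 and 0.629 CPM in H7 and 7.36 and 7.57 CPM in UNKC tumours (-4.14, adjusted p = 0.0074). Of 32 genes of β-catenin transduction 1 was higher (Tle1, a co-repressor, 2.24) and 3 lower, Tcf7l1, Pygo1 and Tle3 (-1.01). Of 21 planar polarity and noncanonical genes 1 was higher (Scrib, 0.49) and 3 lower, Vangl2, Prickle1 (-3.67) and Celsr2 (-1.35). The medians of these 4 lists were -0.68, -1.94, -0.0035 and -0.25. Between the tumours 7.06% of all tested genes were higher and 11.1% lower in H7. The shares of β-catenin transduction and of planar polarity were near or under these. Against normal pancreas, the shares over all tested genes were 29.6% higher and 21.9% lower for H7, and 29.1% and 19.3% for UNKC tumours. Beside these shares, the secretion list had 4 higher and 2 lower genes in H7 tumours and 4 and 0 in UNKC tumours, the co-receptors 3 and 2, then 4 and 0, β-catenin transduction 9 and 9, then 10 and 7, planar polarity 4 and 10, then 5 and 9, and the target genes 11 and 6, then 11 and 4.

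Both comparisons with normal pancreas share its libraries. Higher in both tumours were Wnt7b, Wnt10a, Fzd1, Fzd2, Fzd5, Fzd6, Fzd7, Lrp6, Znrf3, Sfrp1 and Ctnnb1, and lower in both were Wnt2b, Fzd3, Fzd4, Rnf43, Rspo1, Dkkl1 and Apc. Calls in H7 tumours alone were the rises of Wnt9a, Wnt10b, Fzd8 and Notum and the falls of Wnt4, Dkk3 and Axin2, each of which was also called in the direct comparison of the tumours. In UNKC tumours alone they were the rises of Wnt5a, Lrp5, Lgr5, Lgr6 and Dkk1, likewise called directly. Dkk1 was at least 1.23-fold above the normal floor (adjusted p = 0.049). Of the target genes, Ccn4 (no normal read) and Cd44 were higher than in normal pancreas in both tumours, and Myc fell in H7 (-1.65) and UNKC tumours (-2.14). Falls of this size depend on whether total counts alone set the scaling. Total counts include ribosomal RNA and Lars2, which took 92.0% and 85.2% of normal reads and 20.1% to 27.8% of tumour reads. With total counts alone the median of all genes moved from 0.34 to 3.61 in H7 and from 0.42 to 3.77 in UNKC tumours. With ribosomal RNA and Lars2 left out and TMM scaling, it was 0.25 and 0.33. That setting kept all 25 calls of WNT genes in H7 tumours and 22 of 23 in UNKC tumours.

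In the authors' deposited table of H7 tumours, 13 of 43 WNT genes were higher and 11 lower at an adjusted p under 0.05, and 13 and 10 of these were called the same way here. Wif1 was lower in the authors' deposited table alone (log2 -3.78), and Wnt10b and Znrf3 were called here alone. In the authors' deposited table of UNKC tumours 13 were higher and 7 lower, all called the same way here, and Fzd6, Znrf3 and Dkk1 were called here alone. The authors' deposited table gives Axin2 as -4.17 in H7 and -0.33 in UNKC tumours.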

How the data were processed

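RNA-seq counts of 6 libraries, 2 per group, were analysed. The submitters' processing notes name STAR, an aligner, featureCounts, a read counter, DESeq2 1.18.1 and the mm10 build. The step at which each was used was not taken from the notes. The authors deposited raw read counts per gene for each library. The authors' 2 comparison tables hold fragment counts, TPM computed by the authors from them, DESeq2 log2 fold changes and p-values. The deposited read counts were close to 2 times the fragment counts, so both mates were counted. Over the tumour libraries the ratio was lower for Lrp6 (1.72) and Lgr5 (1.76). Both kept their calls between the tumours with fragment counts.

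Counts were filtered with filterByExpr (minimum count 10), leaving 16306 genes, scaled by TMM and tested in edgeR 4.0.16 (quasi-likelihood, legacy = FALSE, R 4.3.3) in 1 model over all 6 libraries, with Benjamini-Hochberg adjustment and a threshold of 0.05. Standard errors are the log2 fold change divided by the square root of F. DESeq2 1.42.0 was an alternative. Python 3.11.15, pandas 2.3.3, SciPy 1.17.1 and matplotlib 3.10.9 made tables, exact binomial counting intervals (95%, on read pairs, where a group had 1 to 6 reads) and figures. For a group without reads, a bound was computed against 3 read pairs, or 6 reads, over that group (1.41 CPM for normal tissue, 0.0408 CPM for H7 and 0.0341 CPM for UNKC). These floors and intervals hold counting error alone. The fit was also run on simulated counts with known changes, placed only in genes above the median level. Recovery of changes in low genes was not covered by that run.

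Genes, lists and tests were chosen with earlier results of these data known. All genes of the rule may be named; those past the threshold between the tumours, or against normal pancreas with at least 1 CPM, were given values, and from each pathway list up to 2 higher and 2 lower genes with at least 5 CPM. Nkd1, Nkd2, Sp5, Lef1, Tcf7, Apcdd1, Trabd2b, Kremen1, Frzb, Reck, Tcf7l1, Pygo1, Vangl2 and the marker genes beside counts were named after their values were seen. Of 19 alternatives, 18 were planned and 1 was added after seeing the data. A further marker list is not reported here.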

Additional observations from a re-analysis of the deposited data

Results flagged for a closer look

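For 25 WNT genes the change from normal pancreas differed between the tumours of the 2 lines, as tested directly between H7 and UNKC tumours (edgeR quasi-likelihood test, adjusted p under 0.05 over all tested genes, n = 2 libraries per group). The log2 difference of H7 from UNKC tumours was -2.96 for Wnt2, -2.99 for Wnt4, -5.17 for Wnt5a, 2.05 for Wnt9a, 2.61 for Wnt10a and 3.40 for Wnt10b among the ligands. Among the receptors it was 1.07 for Fzd1, 1.37 for Fzd2, -1.82 for Fzd3, 1.07 for Fzd6, 1.41 for Fzd7, 1.93 for Fzd8, -1.08 for Lrp5 and 1.31 for Lrp6. In the R-spondin axis it was -4.07 for Lgr5, -4.78 for Lgr6 and -1.52 for Rnf43. Among the secreted inhibitors it was -3.24 for Dkk2, -2.31 for Dkk3, 3.83 for Notum, -2.21 for Sfrp1 and -2.90 for Sfrp2, and Dkk1 was at least 42.4-fold lower in H7. For Axin2 it was -3.98 and for Ctnnb1 -0.74. Groups of 2 libraries were too small to look for single outlying libraries.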

How the results depend on the processing

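In each alternative other than total counts and left-out libraries, 21 of the 25 calls in H7 tumours against normal pancreas were tested and kept (not Apc, Wnt10b and Znrf3), 18 of 23 in UNKC tumours (not Dkk1, Fzd3, Fzd6 and Znrf3) and 21 of 25 between the tumours (not Ctnnb1, Fzd3 and Lrp5). Dkkl1 against normal pancreas and Dkk1 between the tumours kept their calls where tested, but were not tested with fragment counts, nor Dkkl1 with halved counts or the stricter filter. With total counts as the only scaling, 29 genes were higher and 1 lower in H7 and 37 and 1 in UNKC tumours, while 18 of the 25 calls between the tumours were kept and 7 lost (Fzd1, Fzd2, Fzd3, Fzd7, Lrp5, Dkk3 and Ctnnb1). Changes against normal pancreas that turned sign with it were, in H7, Wnt2b (0.29), Wnt4 (0.75), Fzd4 (2.17), Rnf43 (0.019), Dkk3 (0.94) and Apc (2.14), and in UNKC, Wnt2b (1.01), Fzd3 (1.21), Fzd4 (1.50), Rnf43 (1.61) and Apc (2.28). The falls of Axin2, Fzd3 and Rspo1 in H7 and of Rspo1 in UNKC tumours kept their sign with total counts but missed the threshold. No other alternative turned a sign. Leaving out each library in turn, assuming that the lone library of a group varies like the other groups, gave 12 to 14 higher and 8 to 11 lower in H7 tumours, 13 to 16 and 4 to 7 in UNKC tumours, and 2 to 9 and 2 to 14 between the tumours. Leaving out both tumour libraries numbered 2, an alternative chosen after seeing the data that leaves 1 residual degree of freedom, gave 0 calls in edgeR in each comparison and direction, for these genes and for all genes. At an unadjusted p under 0.05 it had 26, 21 and 22 of 42 genes, and DESeq2 called 8 higher and 9 lower, 9 and 4, and 0 and 5. A replicate block gave 15 higher and 10 lower, 17 and 7, and 10 and 17. Deviations of same-numbered libraries correlated at -0.01, -0.02 and 0.53 over 2 numbers, and the labels pair no libraries, so numbers were taken as names. Depth limits the folds against normal pancreas, where 23 of the 46 genes had at most 6 reads.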
